A study of Mus musculus with 2 samples.

Results

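The transcripts examined here are those of the mouse Hox, Pax, Six-family, Lhx, Dlx and Cdx genes, 68 of 19938 genes measured by a probeset of their own. They were chosen by symbol alone: Hoxa, Hoxb, Hoxc or Hoxd followed by a number, the names of the Pax, Six-family, Lhx and Dlx genes with a number alone, and Cdx1, Cdx2 and Cdx4. The group holds 37 Hox genes (10 in Hoxa, 9 in Hoxb, 9 in Hoxc and 9 in Hoxd), 3 Cdx genes, 9 Pax genes, 5 Six-family genes, 8 Lhx genes and 6 Dlx genes. All 68 members were read by 1 probeset each.

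Total RNA was taken from i-OSKM-ESC, a line of strain 129 that was made from KH2 mouse embryonic stem cells. In this line doxycycline, a tetracycline antibiotic, switches on transgenes for Klf4, c-Myc, Oct4 and a Sox2 with an epitope tag. The first array, labelled +Dox, held RNA of cells given 4 µg/mL doxycycline and collected 24 hours later, and the second, labelled -Dox, held RNA of cells refed without the drug. Both cultures carried the transgenes and grew on gelatin-coated plastic. No source used here says whether the line is 1 clone or which promoter drives the transgenes. With 1 array per group there is no replicate error and no test between the groups, so each difference below describes these 2 arrays and an effect of the drug itself cannot be told apart from one of the factors.

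Hox genes encode homeodomain transcription factors that give body segments their identity along the head-to-tail axis, and their order within each cluster follows the order of the body regions in which they act. Cdx proteins act upstream of Hox genes in the posterior embryo. Pax, Six-family, Lhx and Dlx proteins direct the formation of organs such as the eye, kidney, muscle, forebrain and limb, and in undifferentiated embryonic stem cells most of these genes are known to be held silent by Polycomb complexes.

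Values are log2 levels after RMA, a procedure that corrects background, aligns the arrays and summarises the probes of a probeset. The table's median over both arrays was 6.48, and levels are given against it because the table has no detection call. Probesets differ in how well they bind their target, so a position above or below that median is no amount of RNA. Pou5f1, which encodes Oct4, lay at 12.46 in the array labelled +Dox and 12.05 in the array labelled -Dox, Klf4 at 9.34 and 8.91, and Myc at 10.42 and 10.07. Sox2 was lower in the array labelled +Dox, at 10.88 against 11.89, which goes against its induction if the probes read the transgene, so directions below rest on the labels. All 11 markers of pluripotent stem cells lay above the table median on both arrays, between 9.70 and 12.49 in the array labelled +Dox and between 9.56 and 13.01 in the array labelled -Dox. Their median difference was -0.44 and 8 of 11 were lower, with Sox2 (-1.01) and Utf1 (-0.95) farthest from 0.

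Most members lay low on both arrays. Their median was 5.86 in the array labelled +Dox and 5.86 in the array labelled -Dox, and 14 of 68 reached the table median on either array, against 56.1% of all genes. As a yardstick chosen after the data were seen, the 1015 olfactory receptor genes, which belong to the nose, had a median level over both arrays of 4.14 and a 95th percentile of 5.83. Of the members, 35 exceeded that 95th percentile (51.5%, against 66.0% of all genes) and 10 exceeded the 99th percentile of 6.53 (14.7%, against 53.2% of all genes). The 14 members that reached the table median were Hoxa4, Hoxa7, Hoxb1, Hoxb3, Hoxb9, Cdx1, Pax1, Pax7, Pax8, Six4, Six5, Lhx4, Lhx6 and Dlx3. Hoxb1 sat at the line itself, at 6.47 in the array labelled +Dox and 6.48 in the array labelled -Dox.

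**Figure D1:**
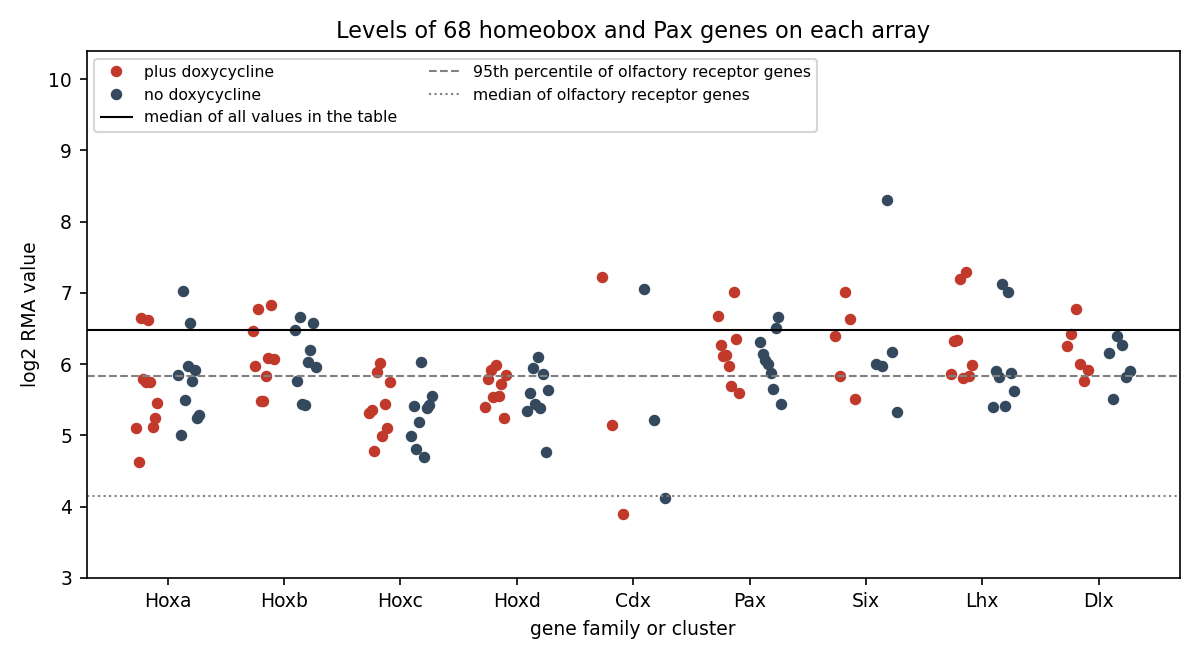
Log2 RMA value (y axis) of each of the 68 members by family or Hox cluster (x axis), 1 point per gene and array, with the array labelled +Dox in red at the left and the array labelled -Dox in dark blue at the right. The solid line is the table median of 6.48, and the dashed and dotted lines are the 95th percentile (5.83) and the median (4.14) of olfactory receptor genes. Most points lie below the solid line, and the highest point, 8.31, is Six4 in the array labelled -Dox.

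Between the arrays, 1 member differed at least 2-fold. Of the 14 members that reached the table median, 0 were at least 2-fold higher and 1, Six4, was lower by that much in the array labelled +Dox. Among all 11191 genes that reached the table median, 0.92% were at least 2-fold higher, 0.768% were lower and 1.69% differed either way, so a single gene among 14 is not read as a property of the group. At a 1.5-fold threshold the counts among the 14 were again 0 higher and 1 lower, against 3.24% and 3.8% of all genes that reached the median and 7.04% either way. At any level, 0 of 68 members were 2-fold higher and 1 was lower, against 0.552%, 0.471% and, either way, 1.02% of all genes. At 1.5-fold and any level, 2 of 68 members were higher (Dlx2 and Hoxc8) and 3 lower (Six4, Hoxa10 and Hoxa2), against 2.61% and 2.56% of all genes and 5.17% either way.

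The median log2 difference of the 68 members, +Dox minus -Dox, was 0.08, and 44 differences were positive and 24 negative. Over all genes the median was 0.01, and over the 8747 genes below the table median it was 0.05, with 60.8% of differences positive. Dim genes in general thus leaned the same way, and with a loess trend on level removed the median of the members was 0.0016 and that of the dim genes 4.5e-04. Pooled, the members' spread was near that of dim genes, with a robust SD (the median absolute deviation, scaled to match an SD for normal values) of 0.222 in members and 0.208 in genes below the table median. It was 0.221 in the 37 Hox genes but wider, at 0.345, in the 31 other members. Of the members, 61 differed by less than 0.5 on the log2 scale (89.7%). The share was 92.1% over all genes and 95.2% over genes below the table median.

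**Figure D2:**
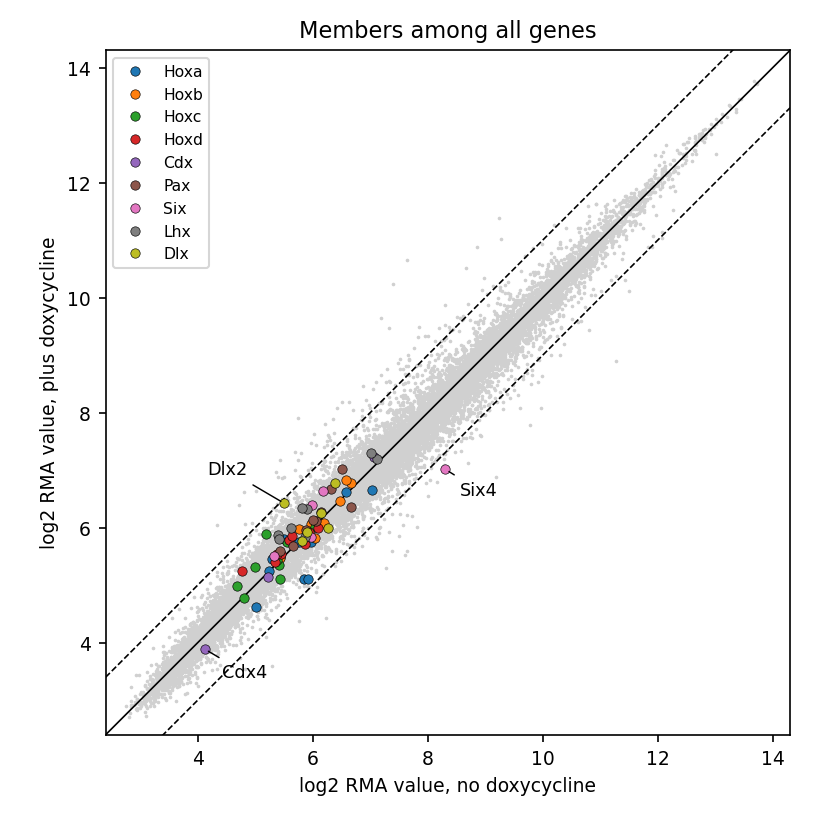
Log2 RMA value in the array labelled +Dox (y axis) against that in the array labelled -Dox (x axis) for 19938 genes in grey and for the 68 members coloured by family. The solid line marks equal values and the dashed lines 2-fold differences. The members gather near the lower part of the diagonal, and Six4, at 7.01 and 8.31, is the one member outside the dashed lines.

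Six-family proteins are homeodomain factors related to Drosophila sine oculis, and they act with Eya coactivators and Dach cofactors in muscle, kidney and sensory organ development. Six4, which acts in muscle precursors, had a log2 level of 7.01 in the array labelled +Dox, against 8.31 in the array labelled -Dox. It was thus 2.45-fold lower (log2 difference -1.29), and it stayed above the table median on both arrays. The difference was -1.11 once 32 was added to both linear values (the offset below), -1.22 with the loess trend removed and -1.25 after quantile normalization. Its promoter is shown because it belongs to the member with the largest difference, as given by RefSeq on build GRCm38.p6 at chr12:73113376-73113675, minus strand, printed 5′ to 3′ with 250 bases before and 50 after the start. The capitals mark the one match to the GC box GGGCGG, a letter run bound by Sp and Klf proteins.
Six4: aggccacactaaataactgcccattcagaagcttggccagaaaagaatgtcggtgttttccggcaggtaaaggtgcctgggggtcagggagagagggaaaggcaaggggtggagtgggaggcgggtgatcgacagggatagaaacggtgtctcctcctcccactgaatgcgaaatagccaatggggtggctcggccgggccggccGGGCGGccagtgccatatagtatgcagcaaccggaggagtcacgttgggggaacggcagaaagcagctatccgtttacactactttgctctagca

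The other Six-family genes did not share the size of that difference. Six5, known from muscle and lens, had 6.64 in the array labelled +Dox and 6.18 in the array labelled -Dox (difference 0.46), which put it above the table median in the first array alone. Six2, which maintains kidney progenitors, had 6.395 and 5.996 (0.40). Six3 and Six6 act in eye and forebrain formation. Six3, next to Six2 on the chromosome, had 5.84 in the array labelled +Dox and 5.98 in the array labelled -Dox (-0.14), and Six6, which neighbours the Six4 locus, had 5.52 and 5.33 (0.18). Six2, Six5 and Six6 were thus slightly higher and Six3 and Six4 lower. Among the 5 nearest measured protein-coding genes on each side of Six4, differences ran from -0.73 to 0.53 with a median of -0.07, none of them as large as that of Six4.

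Of the 6 Eya and Dach partners on the list, 3 reached the table median (50%, against 56.1% of all genes). Among all genes that reached it, 0.768% were at least 2-fold lower, and of the 3 partners 1 was. That gene was Eya1, a coactivator and phosphatase of branchial, ear and kidney development, with 6.15 in the array labelled +Dox and 7.24 in the array labelled -Dox (log2 difference -1.09). With the offset of 32, which can only shrink a difference, that of Eya1 was -0.83, under 2-fold. Eya2 differed the other way, at 6.73 in the array labelled +Dox and 6.08 in the array labelled -Dox (0.65). Eya3, the brightest partner probeset, had 9.78 and 9.95 (-0.17). Eya4, Dach1 and Dach2 lay below the table median on both arrays, with differences of 0.18, 0.00 and -0.11. The median over the 6 partners was -0.06, against 0.01 over all genes.

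**Figure D3:**
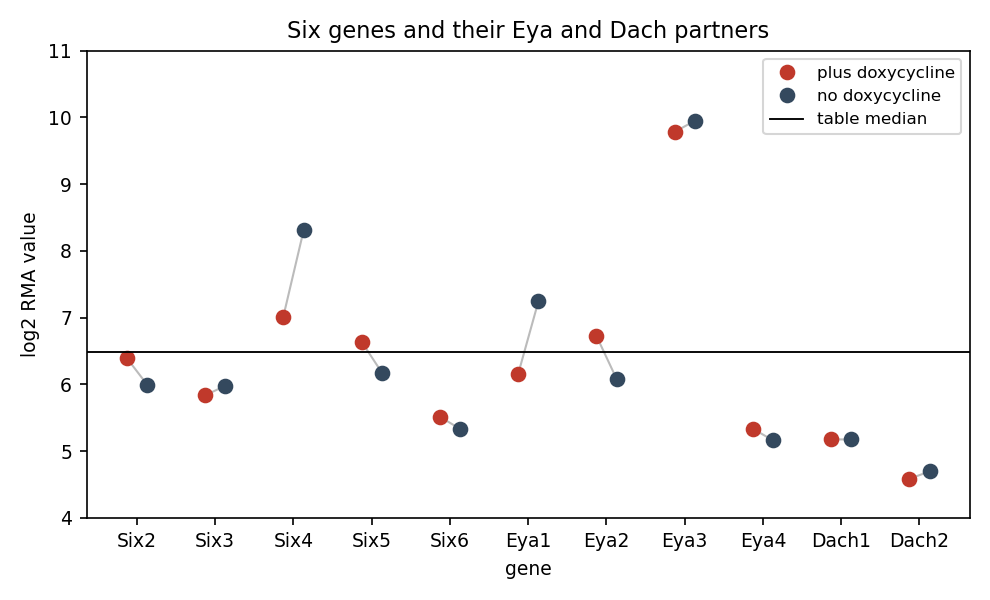
Log2 RMA value (y axis) of the 5 Six-family genes and of their Eya and Dach partners (x axis), with the array labelled +Dox in red at the left and the array labelled -Dox in dark blue at the right, 1 array each, and the table median as a line. Six4 (7.01 against 8.31) and Eya1 (6.15 against 7.24) are lower in the array labelled +Dox, and Eya2 (6.73 against 6.08) is higher.

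The 37 Hox genes lay low in all 4 clusters. Of these, 5 reached the table median: Hoxa4, Hoxa7, Hoxb1, Hoxb3 and Hoxb9, and 0 in Hoxc or Hoxd. By position, 3 of 11 genes with paralog numbers 1 to 4 reached it, 1 of 10 with numbers 5 to 8, and 1 of 16 with numbers 9 to 13, against 56.1% of all genes. One of the first 3 was Hoxb1, at the line itself, and the median levels of these groups were close, at 5.69, 5.59 and 5.58. The 24 protein-coding genes that flank the clusters, 3 on each side, had a median level of 8.33, and 20 of them reached the table median. At any level, 0 Hox genes differed 2-fold between the arrays, and the median difference of the 37 was 0.05.

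Hoxa had the widest spread and was the one cluster with a negative median, at -0.11, or -0.21 with the loess trend removed, but without Hoxa10 alone the median was -0.0010. Hoxa10, a posterior gene of the limb, uterus and blood progenitors, had 5.11 in the array labelled +Dox and 5.92 in the array labelled -Dox, a difference of -0.81. Hoxa2, which patterns the hindbrain and the second pharyngeal arch, had 5.10 and 5.85 (-0.75). Both lay below the table median on both arrays, and with the offset of 32 their differences were -0.48 and -0.43. Hoxa3, a gene of the third pharyngeal arch, had 4.62 in the array labelled +Dox and 5.01 in the array labelled -Dox (-0.39). Hoxa4 had 6.65 and 7.03 (-0.38), the highest Hox value on the array labelled -Dox. Hoxa7, in contrast, had 6.63 and 6.58 (0.05), and Hoxa5, a gene of lung and axial skeleton, had 5.80 and 5.50 (0.30). In all, 6 Hoxa differences were negative and 4 positive, but those of Hoxa9 (-0.0010), Hoxa11 (0.01) and Hoxa7 lay near 0. With 1 array per group, these signs cannot show whether neighbours within the cluster differed in opposite directions.

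In Hoxb, differences stayed between -0.21 and 0.25 with a median of 0.05, which was -0.04 with the loess trend removed. Hoxb9 had 6.83 in the array labelled +Dox and 6.58 in the array labelled -Dox (0.25), and Hoxb3 had 6.78 and 6.66 (0.12). Hoxb1, a gene of hindbrain segment identity that responds early to retinoic acid, differed by -0.01. Among the genes that flank Hoxb, Ttll6, named after its value was seen, was lower at 6.24 in the array labelled +Dox against 7.51 in the array labelled -Dox (-1.27), while the cluster beside it was not.

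Hoxc values lay between 4.78 and 6.02 in the array labelled +Dox and between 4.69 and 6.03 in the array labelled -Dox, with a median difference of 0.05 that was -0.04 with the loess trend removed. Hoxc8, a gene of the thoracic skeleton and motor neurons, had 5.89 in the array labelled +Dox and 5.19 in the array labelled -Dox (0.69, or 0.41 with the offset of 32). Hoxc6, among the dimmest members, had 4.78 and 4.80 (-0.02). Hoxd values lay between 5.25 and 5.99 in the array labelled +Dox and between 4.77 and 6.09 in the array labelled -Dox, with a median difference of 0.09 that was 2.8e-05 with the loess trend removed. Hoxd12, a gene of the digits and forearm, was highest in difference there, with 5.25 in the array labelled +Dox and 4.77 in the array labelled -Dox (0.48, or 0.24 with the offset). The other 8 Hoxd genes differed by between -0.15 and 0.22.

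**Figure D4:**
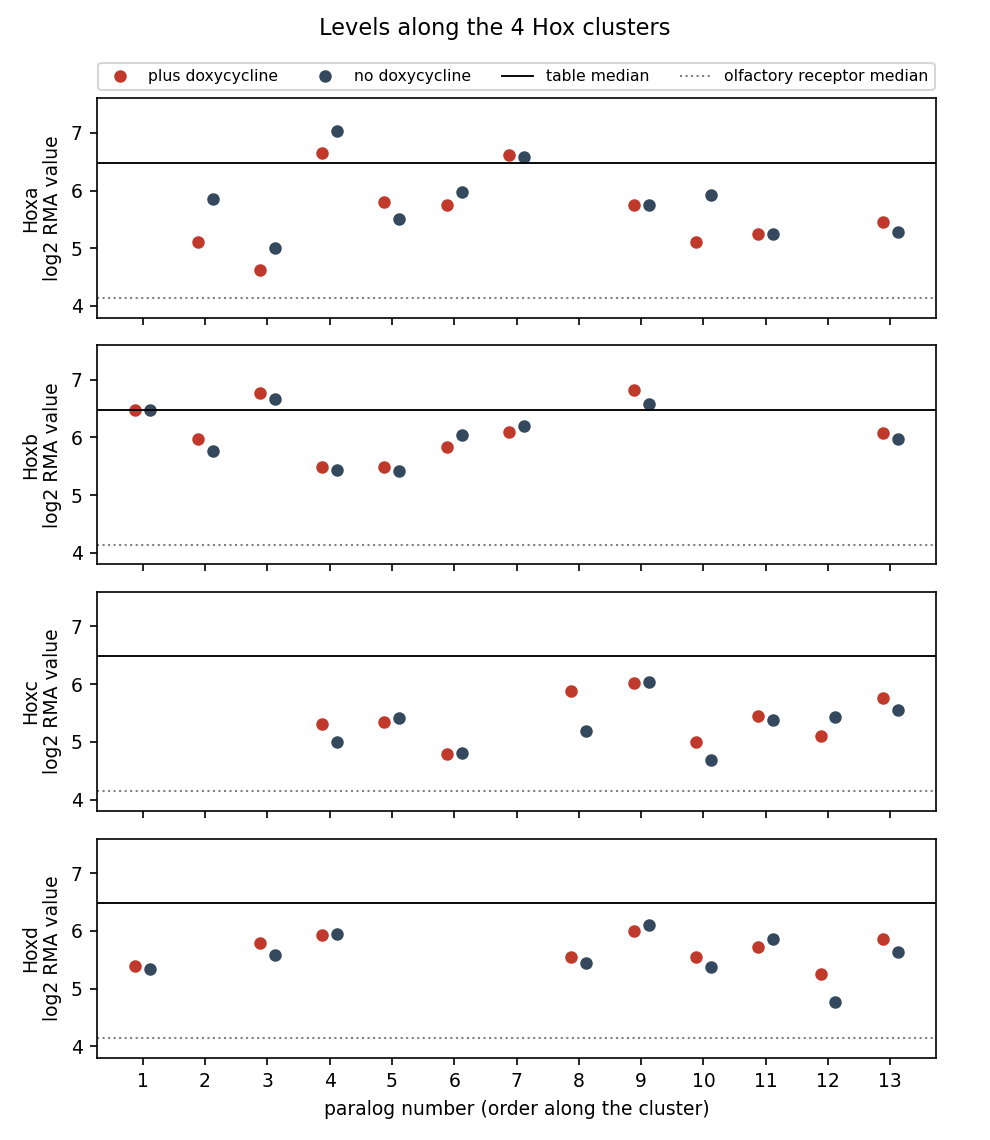
Log2 RMA value (y axis) of the Hox genes by paralog number (x axis) in 4 panels, 1 per cluster, with the array labelled +Dox in red at the left and the array labelled -Dox in dark blue at the right. The solid line is the table median (6.48) and the dotted line the olfactory receptor median (4.14). Points of Hoxc and Hoxd lie below the solid line throughout, and the pairs of Hoxa2 and Hoxa10 are the farthest apart in Hoxa.

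Noncoding genes of the same loci were also low, with 2 exceptions. Hoxd3os1, an antisense RNA at Hoxd3, had 5.54 in the array labelled +Dox and 5.53 in the array labelled -Dox, and Hoxaas2, in the Hoxa cluster, had 5.82 and 6.08. Hottip, a long noncoding RNA at the posterior end of Hoxa, had 4.30 and 3.97. The microRNA genes Mir10a and Mir10b had 3.76 and 3.23 in the array labelled +Dox, against 4.15 and 3.35 in the array labelled -Dox. The exceptions that reached the table median were Mir615, at 7.40 in the array labelled +Dox and 7.09 in the array labelled -Dox, and Mir196a-1, at 6.14 and 6.59. All 11 such genes examined differed by less than 0.5.

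Cdx genes respond to Wnt, FGF and retinoic acid signals in the posterior embryo, and Cdx2 also specifies trophectoderm, where it opposes Oct4. Cdx2 lay low on both arrays, at 5.14 in the array labelled +Dox and 5.22 in the array labelled -Dox, a difference of -0.08. Cdx4 was the dimmest member, at 3.89 and 4.13 (-0.24), below the olfactory receptor median. Cdx1 lay above the table median, at 7.23 in the array labelled +Dox and 7.06 in the array labelled -Dox (0.17). The family median of -0.08 rests on 3 genes and was 0.04 without Cdx4.

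The promoters of Cdx2 and Cdx4 are printed because they are the member promoters that hold the octamer ATGCAAAT, the letters Oct4 is known to bind, shown in capitals. Both come from RefSeq on build GRCm38.p6, 5′ to 3′, at chr5:147307200-147307499 on the minus strand and at chrX:103321148-103321447 on the plus strand. On both strands, 2 of 54 member promoters held the octamer (3.70%), against 1.74% of 32851 promoters in the table.
Cdx2: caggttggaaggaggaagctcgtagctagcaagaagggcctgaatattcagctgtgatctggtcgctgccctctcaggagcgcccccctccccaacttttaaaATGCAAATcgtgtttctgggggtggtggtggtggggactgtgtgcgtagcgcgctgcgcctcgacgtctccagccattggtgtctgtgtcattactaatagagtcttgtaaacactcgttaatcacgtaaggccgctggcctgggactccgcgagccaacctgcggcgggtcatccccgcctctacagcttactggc
Cdx4: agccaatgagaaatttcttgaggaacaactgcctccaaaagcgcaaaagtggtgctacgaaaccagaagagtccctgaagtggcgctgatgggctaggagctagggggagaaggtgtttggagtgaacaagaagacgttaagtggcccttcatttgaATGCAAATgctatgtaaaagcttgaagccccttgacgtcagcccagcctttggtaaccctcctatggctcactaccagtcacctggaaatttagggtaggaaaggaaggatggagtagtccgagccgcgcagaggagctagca

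Pax proteins carry a paired domain and act in eye, kidney, muscle, thyroid and B cell formation. Of 9 Pax genes 8 had positive differences, with a median of 0.12, or 0.04 with the loess trend removed, when those of Pax3, Pax5 and Pax6 turned slightly negative. Pax7, a marker of muscle stem cells and neural crest, had 7.02 in the array labelled +Dox and 6.51 in the array labelled -Dox (0.51), the largest Pax difference. Pax1, a gene of the vertebral column, had 6.68 and 6.31 (0.36). Pax8, a thyroid and kidney regulator, was the exception, at 6.35 in the array labelled +Dox and 6.67 in the array labelled -Dox (-0.31). The other 6, Pax2, Pax3, Pax4, Pax5, Pax6 and Pax9, lay between 5.59 and 6.27 in the array labelled +Dox and between 5.44 and 6.15 in the array labelled -Dox. Pax6, the eye and forebrain regulator, had 5.69 and 5.66, a difference of 0.03.

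Lhx genes encode LIM-homeodomain factors of the nervous system, pituitary and gonad. They had the highest family median, 0.38, which was 0.30 with the loess trend removed, and 7 of 8 differences were positive. Lhx3, needed for pituitary and motor neurons, had 6.34 in the array labelled +Dox and 5.82 in the array labelled -Dox (0.52). Lhx1, of kidney, head organiser and motor neurons, had 5.87 and 5.40 (0.47), and Lhx2, of eye and forebrain, had 6.33 and 5.91 (0.42). Lhx5 had 5.80 and 5.41 (0.39), Lhx9, a gonad regulator, 5.99 and 5.62 (0.37), and Lhx8, of forebrain cholinergic neurons, 5.83 and 5.87 (-0.04). The 2 Lhx genes above the table median had smaller differences than the others except Lhx8, and their median was 0.18: Lhx6, of cortical interneurons, had 7.30 in the array labelled +Dox and 7.02 in the array labelled -Dox (0.28), and Lhx4, a pituitary gene, had 7.19 and 7.12 (0.07). No Lhx gene reached 1.5-fold.

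Of the 10 LIM partners and relatives on the list, 9 were measured, 4 reached the table median and 0 were 2-fold different. Of the 9, 8 were higher, against 51.6% of all genes and 60.8% of genes below the table median. The median difference of the 9 was 0.25, or 0.17 with the loess trend removed, against 0.01 over all genes. Ldb1, the adaptor that joins LIM factors into complexes, was the brightest, at 11.29 in the array labelled +Dox and 11.20 in the array labelled -Dox (0.09). Lmx1b, of limb and midbrain, had 7.14 and 6.68 (0.46), and Lmo2, of blood progenitors, had 7.27 and 7.02 (0.25).

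Dlx genes act downstream of signals in forebrain, jaw and limb, and lie on the chromosomes in neighbouring pairs. Dlx2, a gene of forebrain interneurons and jaw, had the largest positive difference of all members, with 6.42 in the array labelled +Dox and 5.51 in the array labelled -Dox (0.91, or 0.60 with the offset of 32). It stayed under 2-fold and below the table median on both arrays. Its neighbour Dlx1 had 6.26 and 6.15 (0.11), and Dlx1as, an antisense RNA at Dlx1, had 5.68 and 5.35 (0.34). Dlx3, of skin and placenta, had 6.77 in the array labelled +Dox and 6.39 in the array labelled -Dox (0.38), whereas its neighbour Dlx4 had 5.998 and 6.265 (-0.27). Dlx5 and Dlx6, of bone and limb, differed by -0.05 and 0.02. The family median was 0.06, which was -0.03 with the loess trend removed. Dlx1 and Dlx2, and likewise Dlx3 and Dlx4, did not differ by like amounts.

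The Dlx2 promoter is printed because it belongs to the member with the largest positive difference and because it holds 2 copies of the E-box CACGTG, the letters bound by Myc and its partner Max. RefSeq gives it on build GRCm38.p6 at chr2:71546705-71547004, minus strand, 5′ to 3′, and capitals mark both E-boxes and 1 GC box (GGGCGG on the other strand).
Dlx2: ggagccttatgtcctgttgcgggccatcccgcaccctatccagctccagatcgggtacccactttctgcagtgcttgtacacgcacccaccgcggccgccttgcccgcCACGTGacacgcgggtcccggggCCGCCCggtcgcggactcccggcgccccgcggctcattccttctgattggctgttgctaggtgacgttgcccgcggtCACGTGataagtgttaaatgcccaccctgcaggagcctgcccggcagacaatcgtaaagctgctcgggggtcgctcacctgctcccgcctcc

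Across the 54 promoters of the 44 members that matched the table, 6 held the E-box CACGTG (11.1%), against 7.15% of all promoters, and 5 of these 6 belonged to Hoxd genes. The GC box GGGCGG was in 28 (51.9%, against 35.7%), and the Klf letters GGGTGTG were in 5 (9.26%, against 7.95%). The Sox letters AACAATG were in 1 (1.85%, against 3.78%), and TATAAA in 5 (9.26%, against 13.6%). Each motif was searched on both strands, and no motif in the set contains another. A match is a run of letters and no evidence of binding. The median number of CpG pairs in 300 bases was 17 in members and 7 over all promoters, and the median share of G and C was 59.3% against 52.7%. The printed Six4 promoter had 15 CpG pairs, near the members' median, and those of Dlx2, Cdx2 and Cdx4 had 29, 18 and 8.

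**Figure D5:**
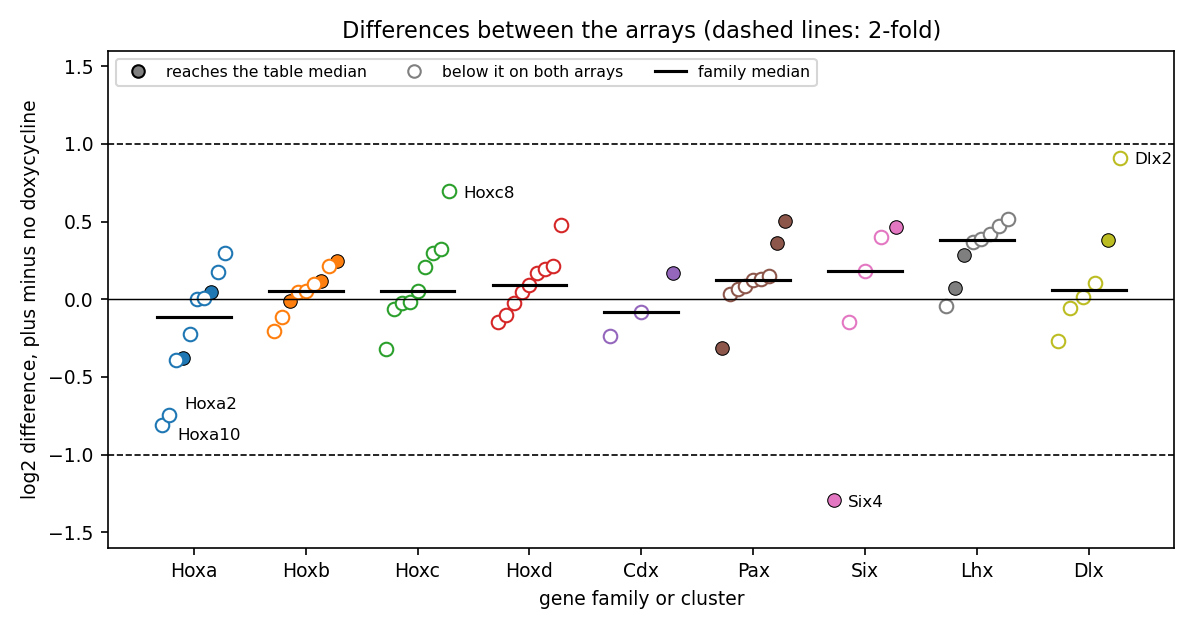
Log2 difference, +Dox minus -Dox (y axis), of each member by family (x axis). Filled points reach the table median on either array, open points lie below it on both, thick bars are family medians and dashed lines mark 2-fold. Six4 at -1.29 is the one point beyond a dashed line, Dlx2 reaches 0.91, and 7 of the 8 Lhx points lie above 0.

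Genes that act with or upstream of the members were taken from lists written with earlier results of these data known. For comparison, 56.1% of all genes reached the table median, and 1.69% of those differed 2-fold. The 8 measured Hox cofactors of the TALE class (Meis, Pbx and Pknox, which bind DNA together with Hox proteins) had negative differences throughout. Closest to 0 was Meis3 (-0.01). Their median was -0.23, or -0.22 with the loess trend removed, against 0.01 over all genes and -0.03 over genes that reached the table median. Of the 5 cofactors that reached it, 0 were 2-fold different. Pbx2 had 8.21 in the array labelled +Dox and 8.69 in the array labelled -Dox (-0.47), and Pbx3 had 8.74 and 9.02 (-0.28). Polycomb genes, which encode the complexes that keep Hox loci silent, were bright, and 25 of 26 reached the table median. Their median difference was -0.04 with 0 at 2-fold, and the genes farthest from 0 were Jarid2, with 11.14 and 12.07 (-0.93), and Phc1, with 9.83 and 10.73 (-0.90). Ezh2, the histone methyltransferase of the complex, had 11.82 in the array labelled +Dox and 11.59 in the array labelled -Dox (0.23), named after its value was seen.

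All 11 trithorax and H3K27 demethylase genes, which counteract Polycomb, reached the table median, with 0 at 2-fold. Their median difference was -0.19, or -0.15 with the loess trend removed. Kdm6a, an H3K27 demethylase, had 8.77 in the array labelled +Dox and 9.26 in the array labelled -Dox (-0.49), and Kmt2c, a histone methyltransferase, had 8.92 and 9.20 (-0.28). In the retinoic acid pathway, whose ligand induces Hox genes in order along the cluster, 9 of 16 genes reached the table median. That share, 56.25%, was near the 56.1% over all genes. Of the 16, 0 differed 2-fold, and their median difference was 0.09. The retinoic acid binding protein genes Crabp1 and Crabp2 were highest in difference. Crabp1 had 10.94 in the array labelled +Dox and 9.98 in the array labelled -Dox (0.96), and Crabp2 had 7.38 and 6.64 (0.74).

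Of the 11 posterior axis regulators measured, 6 reached the table median (54.5%, against 56.1% of all genes) and 0 differed 2-fold (median 0.10). Gdf3 had 8.62 in the array labelled +Dox and 9.18 in the array labelled -Dox (-0.56), and Gdf11, a signal that sets where posterior Hox genes start, had 6.73 and 6.58 (0.15). The difference farthest from 0 was that of Wnt3a, below the table median. Wnt3a had 6.16 in the array labelled +Dox and 5.53 in the array labelled -Dox (0.63, or 0.40 with the offset of 32). Of the 11 differences 10 were positive, against 51.6% over all genes and 60.8% over genes below the table median. Those of Fgf4 (0.0034) and Evx2 (0.0027) lay near 0, and the list's median was 0.02 with the loess trend removed. Among the 48 measured genes of other homeobox families, 20 reached the table median, 0 of them were 2-fold higher and 3 were 2-fold lower, with a median of 0.12. Over all genes 56.1% reached the median, and of those 0.92% were 2-fold higher and 0.768% lower. Gbx2, a factor of the hindbrain boundary and of naive stem cells, had 8.25 in the array labelled +Dox and 9.42 in the array labelled -Dox (-1.17). Otx2, of forebrain and epiblast, had 5.81 and 7.11 (-1.30), and En2, of midbrain and cerebellum, had 5.66 and 6.72 (-1.06). With the offset of 32, which can only shrink a difference, Otx2 was at -0.95 and En2 at -0.74, under 2-fold, and Gbx2 at -1.09.

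Markers of other cell types were read beside these values. In bulk RNA, fewer cells of a type and less RNA per cell cannot be told apart. The 14 fibroblast or feeder markers had a median level of 6.33 in the array labelled +Dox and 6.33 in the array labelled -Dox, and a median difference of 0.22 with 8 of 14 positive. Of these markers, 0 of the 7 that reached the table median differed 2-fold, and Fbln2 (0.52) and Col1a2 (0.50) were farthest from 0. Among the 7, Col1a1 (0.45) and Thy1 (0.27) were also higher, and Pdgfrb (-0.25), Loxl1 (-0.18) and Col3a1 (-0.07) were lower. Of 5 neural markers that reached the table median, Map2 and Tubb3 were higher (1.33 and 1.27), and Neurod1 (-1.08), Olig2 (-0.78) and Sox1 (-0.13) were lower. The median over the 9 neural markers measured was -0.01, with 4 differences positive and 5 negative. Of the 8 trophectoderm markers 5 reached the table median. Krt8 was more than 2-fold higher (1.75), Tead4 was at 0.98, Hand1 at 0.30, Krt18 at 0.08 and Tfap2c at -0.83. The median over the 8 was 0.16. The mesoderm and endoderm markers had medians of 0.04 and 0.07 with 0 at 2-fold, and farthest from 0 among those that reached the table median were Eomes (-0.24) and Msgn1 (0.15) for mesoderm and Gata4 (0.24) and Foxa2 (-0.24) for endoderm. The part of such cells in the members' values was not tested.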

How the data were processed

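Per the submitters' processing notes, the deposited log2 values, 1 per probeset and array for 35556 probesets, came from Affymetrix Expression Console with RMA. Tool versions and a genome build are not given in those notes. No further scaling was applied. Because RMA gives both arrays one distribution, a shift common to most transcripts is hidden, and differences of dim transcripts are compressed. Probesets were named from the platform annotation (21789 with exactly 1 gene), and a gene's value was the mean of its probesets. All 68 members matched the mouse gene table of GRCm38.p6, which was used for gene order and for the RefSeq promoters. Other genes that fit the rule are not reported here.

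The comparison was the log2 difference, +Dox minus -Dox. A gene was counted as different when its higher value reached the table median and it differed at least 2-fold. No p-value is given, because 1 array per group sets the precision. The symbol rule for the members and the gene lists were set with earlier results of these data known. The genes named are those that reached the table median, those with the largest differences or the highest and lowest levels, and the Cdx genes, with the others named after their values were seen. From each list the text takes the 2 genes farthest from 0 among those that reached the table median and those at 2-fold, with any others named after their values were seen. Alternatives were the brightest probeset, single probesets, quantile normalization, loess centring (span 0.3), an offset of 32, and other filters and thresholds. By construction the offset can only shrink a difference, most for dim genes, so a smaller value with it is no test of that difference. The steps were tested on simulated data. Software was statsmodels 0.14.6, NumPy 2.4.6, matplotlib 3.10.9 and pandas 2.3.3 under Python 3.11.15.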

Additional observations from a re-analysis of the deposited data

How the results depend on the processing

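No paired analysis was possible because each group has 1 array. The count of 14 members that reached the table median was 9 against the median of single-gene values, 9 when the lower array had to reach it, 1 at a log2 level of 8 and 35 against the 95th percentile of olfactory receptor genes, an alternative chosen after seeing the data. The count of 0 members 2-fold higher and 1 lower was the same under each single change of normalization, filter or threshold, including 1.5-fold. With 1.5-fold and no filter on level together, an alternative also chosen after seeing the data, it was 2 higher and 3 lower. With only members that reached the table median, family medians were 0.17 for Cdx (1 gene), 0.36 for Pax, -0.42 for the Six-family genes, 0.18 for Lhx and 0.38 for Dlx (1 gene), so Lhx was no longer the highest. The medians of Hoxb, Hoxc and Dlx turned slightly negative with the loess trend removed, and that of Cdx turned positive without Cdx4. Under 4 alternatives to each member's value, 9 of 68 members changed sign (Dlx6, Hoxa11, Hoxb4, Hoxb5, Hoxc11, Hoxd1, Pax3, Pax5 and Pax6), and their differences were at most 0.08. Of the 4, only quantile normalization and loess centring could change a sign. With 1 probeset per member the brightest probeset gives the same value, and the offset keeps the order of the arrays. Between the 2 probesets of a gene, differences had an SD of 0.211, no error between cultures. Most members were dim, and without a detection call how far they lay from background is not known. This limits what can be read from them.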
